A study of Mus musculus with 9 samples.

Results

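Kinesins are motor proteins that walk along, slide or shorten microtubules. The members described here are the mouse genes whose symbol is Kif followed by a number and an optional letter a to c, together with Kifc1, Kifc2, Kifc3 and Kifap3, where the array has a probe set that reports that gene alone. This rule found 40 genes of the 19938 with such a probe set. It reads no measured value, but it and the roles below were chosen with earlier results of these data known. By what they are known to do, 12 were grouped as kinesins of cell division, 14 as kinesins of axonal, dendritic and vesicle transport, 10 as kinesins of cilia and centrioles, and 4 as others. Kifc1, a minus-end motor that focuses spindle poles, has only a probe set shared with Kifc5b and is not among the 40.

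A dividing cell builds its spindle from microtubules, pushes the poles apart with plus-end kinesins, moves chromosomes with motors bound to chromosome arms and kinetochores, and completes the split with kinesins of the central spindle and midbody. A neuron that has stopped dividing uses other kinesins to carry synaptic vesicle precursors, mitochondria and endosomes out along axons and dendrites. A further set, with the Kif3a and Kif3b motor at its centre, builds the primary cilium, the organelle through which Hedgehog signalling reaches Sufu and the Gli factors. Granule neuron progenitors divide under that signal in the outer layer of the young cerebellum and then become granule neurons, and medulloblastoma of the Hedgehog type arises from them.

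RNA was measured in mice at postnatal day 13 in 3 groups of 3 arrays. These were wildtype cerebellum, SufuKO cerebellum (Sufu, the inhibitor that holds the Gli factors, knocked out) and medulloblastoma from Ptch1KO mice (Ptch1, the Hedgehog receptor that keeps the pathway off, knocked out). The labels name no strain, allele or Cre driver, and they do not state whether each array is a different mouse. The p-values therefore measure the spread among these arrays, which may be technical. The tumours and the cerebella also differ in what was dissected, so genotype and tissue cannot be told apart in comparisons of the tumours with either cerebellum group.

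As a check of the labels, Sufu had a mean log2 value of 8.07 in SufuKO against 8.96 in wildtype, while Ptch1 had a mean of 11.28 in the Ptch1KO tumours against 10.26. The Sufu mean in the tumours was 9.88, 1.89-fold above wildtype. The labels do not say which part of either gene was deleted, so the Ptch1 probe set does not check its label. Gli1, a Hedgehog target, had means of 7.36, 7.24 and 9.17 in wildtype, SufuKO and the tumours, and Mki67, a protein of dividing cells, 7.04, 9.67 and 10.6. The 9 array medians lay between 6.72 and 6.79. Xist was high on all 3 wildtype arrays but on 1 array of each mutant group, so sex differed between the groups. The markers of granule neuron progenitors were Atoh1, Barhl1, Insm1, Mki67 and Mycn, so the list includes a gene of dividing cells. The sum of their 5 log2 values was 37.34 to 38.89 in wildtype, 45.81 to 46.96 in SufuKO and 50.01 to 52.26 in the tumours. The values are of whole tissue, so fewer cells of a type and less RNA per cell cannot be told apart.

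Of the 40 kinesins 39 passed the filter on low values and were tested, Kif27 being the exception. In SufuKO 14 were called higher than wildtype and 2 lower, where 13% of all 16323 genes tested were called higher and 12.4% lower. The count of 2 was 1 without any single wildtype array or without SufuKO replicate 3, and 4 without tumour replicate 3. In the tumours 15 were called higher and 15 lower than wildtype, against 22.1% and 24.7% of all genes. Between the mutants, 12 were called higher in the tumours and 10 lower, against 12.2% and 17.5%. Called means an adjusted p under 0.05 from limma, a linear model fitted over all genes tested, with Benjamini-Hochberg adjustment. The same fit gave every adjusted p below, except where another fit or setting is named. The median log2 difference over all genes tested was -0.006, -0.013 and -0.008 in the 3 comparisons. The comparisons of SufuKO and of the tumours with wildtype share the same 3 wildtype arrays, and so each is given with its own values.

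The roles differed in how their members were called. Of all genes tested, 13% were called higher in SufuKO, 22.1% in the tumours and 12.2% in the tumours against SufuKO. The shares called lower were 12.4%, 24.7% and 17.5%. Of the 12 division kinesins 11 rose in SufuKO, 11 rose in the tumours and 11 were higher in the tumours than in SufuKO, with median log2 differences over the 12 of 1.46, 2.37 and 0.94. Of the 14 transport kinesins 10 fell in the tumours and 2 rose (median -0.39), while in SufuKO 2 fell, 2 rose and 10 were not called (median -0.06), shares near those of all genes. With 1 array left out, the transport kinesins called higher in SufuKO numbered 1 without wildtype replicate 1 or 3 or SufuKO replicate 2 or 3. Those called lower numbered 1 without any single wildtype array or SufuKO replicate 1 or 3, and 3 without tumour replicate 3. Among the 9 ciliary and centriolar kinesins tested, 4 fell and 2 rose in the tumours (median -0.14), and 1 rose in SufuKO (median -0.07). The shares of them that rose were near those of all genes in both mutants. Of the 4 others 1 fell in the tumours, a share near that of all genes. None of the 4 was called in SufuKO by limma, where 1 was lower at an unadjusted p under 0.05 (Kif26b, log2 difference -0.46, adjusted p = 0.0769).

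**Figure D1:**
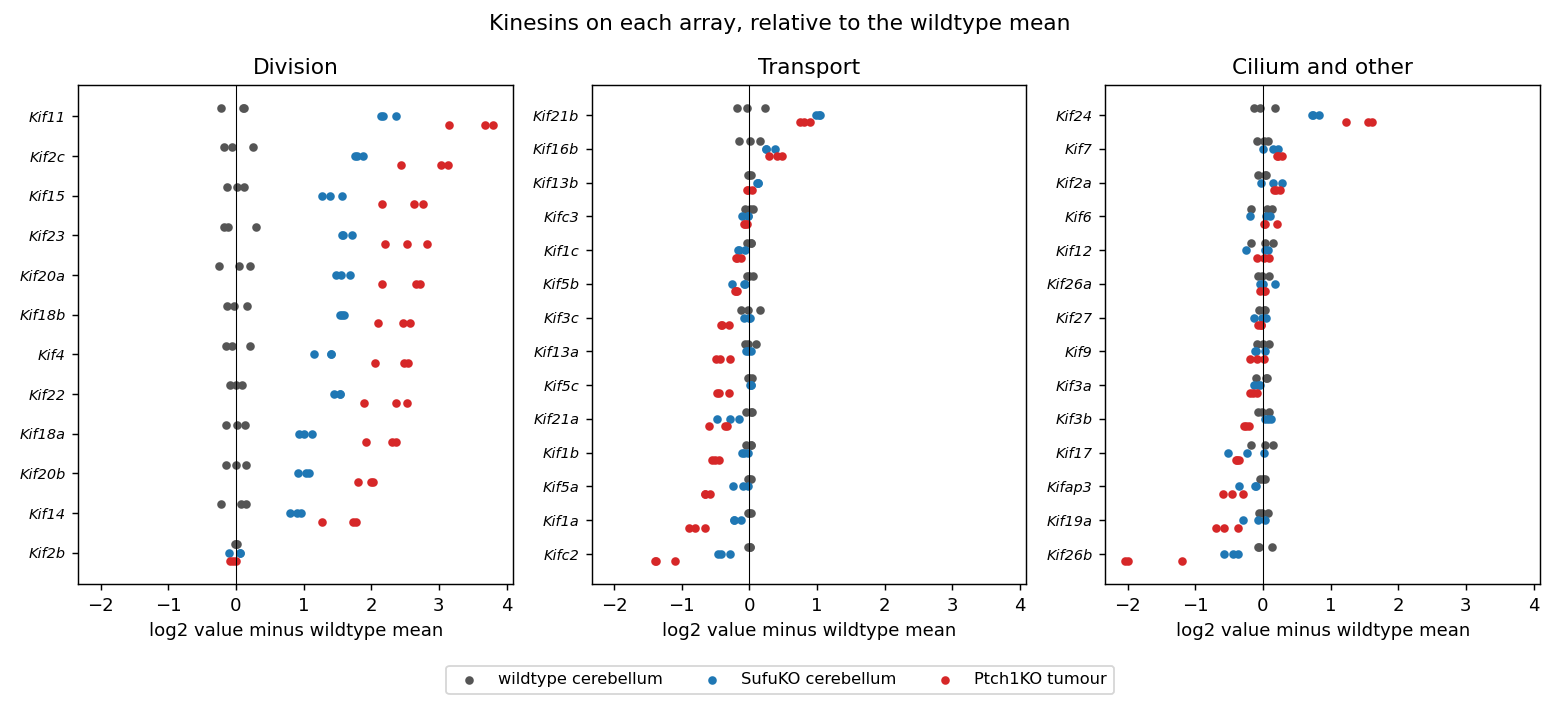
Log2 value of each of the 40 kinesins on each of the 9 arrays, minus that gene's wildtype mean (x axis), with a row per gene, panels by role, and rows ordered by the tumour mean. Wildtype arrays are grey, SufuKO arrays blue and Ptch1KO tumours red; 11 of 12 division kinesins run from grey through blue to red without overlap, while most transport kinesins have blue points near 0 and red points to the left.

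The order wildtype, SufuKO, tumour was free of any overlap between groups for 12 kinesins in the rising direction, where 8.60% of all genes tested showed that pattern. These were the 11 division kinesins that were called and Kif24. In the falling direction the pattern held for 3 kinesins, Kif1a, Kifc2 and Kif26b, against 11.1% of all genes.

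Among the spindle motors, Kif11 (kinesin-5, which slides antiparallel microtubules apart) read 6.32, 6.002 and 6.33 (log2 value) on the 3 wildtype arrays, 8.39, 8.37 and 8.59 in SufuKO and 10.02, 9.90 and 9.36 in the tumours. The 3 groups lay apart, and no other kinesin had as large a difference from wildtype in either mutant. Kif11 was 4.70-fold higher in SufuKO (log2 difference 2.23 ± 0.15, SE; adjusted p = 2.58e-06) and 11.7-fold higher in the tumours (3.54 ± 0.15; adjusted p = 8.32e-09), and it was 2.48-fold higher in the tumours than in SufuKO (adjusted p = 6.02e-05). Kif15, the kinesin-12 that helps to hold a bipolar spindle, read 6.20, 5.96 and 6.10 in wildtype, 7.35, 7.48 and 7.65 in SufuKO and 8.86, 8.71 and 8.25 in the tumours. Its groups did not overlap either, and its rise was 2.66-fold and 5.74-fold over wildtype.

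Both chromokinesins, which bind chromosome arms, rose in both mutants. Kif4 read 5.43, 5.08 and 5.16 in wildtype, 6.37, 6.63 and 6.62 in SufuKO and 7.77, 7.71 and 7.27 in the tumours. Kif22 read 6.23, 6.13 and 6.04, then 7.67, 7.59 and 7.67, then 8.66, 8.51 and 8.03. In each gene the lowest tumour array was above every SufuKO array and the lowest SufuKO array above every wildtype array. The folds over wildtype were 2.49 and 5.14 for Kif4 and 2.85 and 4.80 for Kif22 in SufuKO and the tumours. Wildtype Kif4 was dim, above the 25th percentile of its array on 7 of all 9 arrays, so its fold may be understated.

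At kinetochores and microtubule ends 3 of the 4 division kinesins rose. Kif2c, a depolymerase that corrects wrong attachments at centromeres, read 6.33, 5.90 and 6.02 in wildtype, 7.88, 7.84 and 7.97 in SufuKO and 9.22, 9.12 and 8.52 in the tumours. It was 3.51-fold higher in SufuKO (adjusted p = 1.17e-05) and 7.30-fold higher in the tumours (adjusted p = 4.71e-08), a difference from wildtype exceeded among kinesins by Kif11 alone. Its close relative Kif2b was not called in any comparison. Kif2b lay between 5.32 and 5.48 over all 9 arrays, above the 25th percentile of the array on 8 of them and so at the dim end, with the groups overlapping and log2 differences from wildtype of 0.0032 in SufuKO (95% interval -0.14 to 0.15) and -0.05 in the tumours (-0.19 to 0.10).

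The 2 kinesin-8 motors grouped with division, which act at plus ends, also rose. Kif18a, which dampens the oscillation of aligned chromosomes, read 5.70, 5.59 and 5.42 in wildtype, 6.50, 6.58 and 6.70 in SufuKO and 7.93, 7.88 and 7.49 in the tumours. Kif18b, which shortens astral microtubules, read 7.10, 6.90 and 6.79, then 8.47, 8.49 and 8.53, then 9.50, 9.40 and 9.03. Neither gene had overlapping groups. The 2 motors differed in how the rise was divided, since Kif18a gained 1.02 (log2 difference) from wildtype to SufuKO and 1.18 from SufuKO to the tumours, and Kif18b gained 1.57 and then 0.81. That difference between the genes was not tested.

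All 4 kinesins of the central spindle and midbody rose. Kif20a, which brings the chromosomal passenger complex to the midzone, read 6.42, 6.26 and 5.96 in wildtype, 7.76, 7.68 and 7.90 in SufuKO and 8.88, 8.94 and 8.37 in the tumours. Kif23, the motor of the centralspindlin complex, read 6.56, 6.07 and 6.14, then 7.82, 7.84 and 7.97, then 9.07, 8.79 and 8.46. The groups of both were separate, with tumour folds over wildtype of 5.71 for Kif20a and 5.73 for Kif23. Kif14, a midbody motor, had the smallest rise of the 11, reading 6.03, 5.97 and 5.66 in wildtype, 6.79, 6.68 and 6.85 in SufuKO and 7.67, 7.62 and 7.16 in the tumours. That was 1.85-fold (adjusted p = 0.000428) and 3.03-fold (adjusted p = 8.25e-07). A second probe set of Kif14, with a mean level of 4.26, differed from wildtype by -0.0039 and 0.0062 (log2) in SufuKO and the tumours, so the gene's rise rests on the brighter probe set.

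Kif20b, the other kinesin-6 of the midbody, read 4.97, 4.68 and 4.82 in wildtype, 5.86, 5.74 and 5.91 in SufuKO and 6.82, 6.85 and 6.62 in the tumours. It passed the filter through the 6 mutant arrays alone, and so its 2.01-fold and 3.83-fold rise over wildtype comes with a wildtype level at the dim end of the array. With no filter on low values the count of division kinesins called higher was again 11 of 12 in each comparison. That setting keeps Kif20b whatever its wildtype level, so it is no check on this point. A filter at the array median left out Kif20b and Kif2b, and the 10 division kinesins it kept were all called higher in each comparison.

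**Figure D2:**
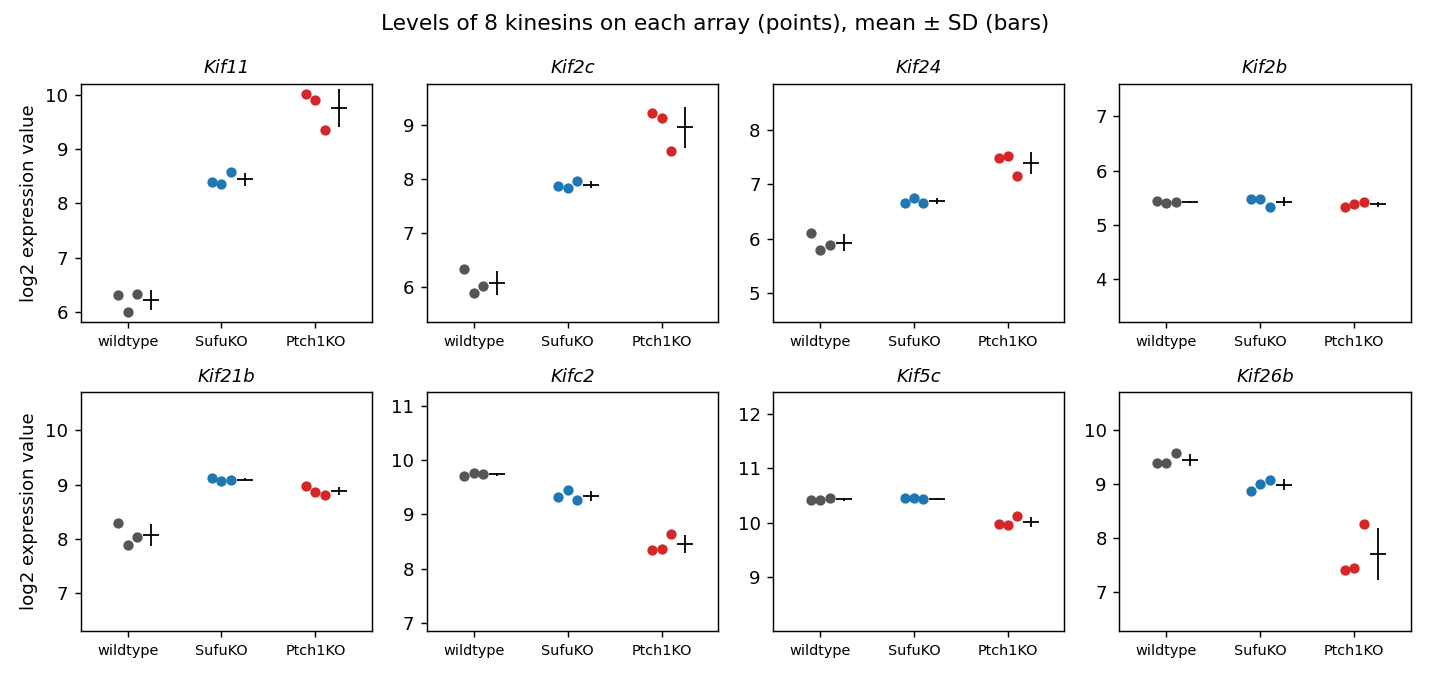
Log2 expression values (y axis, with the same span in each panel) of 8 kinesins on each array, by group, with the mean and SD of 3 arrays as a bar beside the points. Kif11, Kif2c and Kif24 climb in steps, the dim Kif2b stays level, Kif21b is up in both mutants, Kifc2 and Kif26b step down, and Kif5c is lower in the tumours and near wildtype in SufuKO.

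Genes expressed late in the cell cycle are known to carry the cell cycle homology region (CHR), a short element close to the start of transcription, often with a CCAAT box, which binds the factor NF-Y, upstream of it. Promoters in RefSeq (assembly GRCm38.p6, 250 bases before to 50 bases after the start) were found for 32 of the 40 kinesins, with 36 promoters in all. They are missing for Kif13b, Kif19a, Kif20a, Kif21b, Kif5a, Kif5b, Kifc2 and Kifc3. The windows below are shown because 7 division kinesins that rose together hold the letters TTTGAA, the core of the CHR, on either strand within 50 bases of the start. Each runs from 50 bases before the start to 30 bases after it, 5′ to 3′ on the strand of the gene, with TTTGAA and CCAAT, or their reverse complements TTCAAA and ATTGG, in capitals.
Kif11 (chr19:37376332-37376411, plus strand): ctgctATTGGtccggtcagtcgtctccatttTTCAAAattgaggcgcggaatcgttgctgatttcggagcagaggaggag
Kif15 (chr9:122951031-122951110, plus strand): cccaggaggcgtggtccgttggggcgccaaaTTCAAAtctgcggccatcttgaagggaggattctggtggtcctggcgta
Kif22 (chr7:127042391-127042470, minus strand): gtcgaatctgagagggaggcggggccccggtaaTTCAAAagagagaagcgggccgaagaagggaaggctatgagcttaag
Kif23 (chr9:61946770-61946849, minus strand): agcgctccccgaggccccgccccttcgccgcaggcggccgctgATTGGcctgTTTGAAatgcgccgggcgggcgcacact
Kif18b (chr11:102925095-102925174, minus strand): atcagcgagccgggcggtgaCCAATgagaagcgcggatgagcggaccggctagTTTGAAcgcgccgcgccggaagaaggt
Kif20b (chr19:34922308-34922387, plus strand): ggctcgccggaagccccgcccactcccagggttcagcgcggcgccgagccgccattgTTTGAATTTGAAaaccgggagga
Kif4 (chrX:100626015-100626094, plus strand): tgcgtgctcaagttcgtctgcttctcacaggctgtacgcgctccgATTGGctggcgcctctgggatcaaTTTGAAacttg

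For contrast, the same window is given for Kif26b and for 1 of the 2 promoters of Kif1a, which hold TTTGAA near the start although both genes fell in the tumours. It is also given for Kif2b, the division kinesin that was not called, for Kif18a, which rose without a TTTGAA match, and for Kif5c, a neuronal transport kinesin.
Kif26b (chr1:178529075-178529154, plus strand): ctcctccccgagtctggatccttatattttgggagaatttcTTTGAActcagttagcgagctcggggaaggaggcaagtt
Kif1a (chr1:93082451-93082530, minus strand): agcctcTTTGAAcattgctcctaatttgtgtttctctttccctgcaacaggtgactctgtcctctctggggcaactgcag
Kif2b (chr11:91577526-91577605, minus strand): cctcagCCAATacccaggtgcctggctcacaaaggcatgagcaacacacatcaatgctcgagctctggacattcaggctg
Kif18a (chr2:109280688-109280767, plus strand): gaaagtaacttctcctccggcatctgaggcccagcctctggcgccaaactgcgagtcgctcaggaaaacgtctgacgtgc
Kif5c (chr2:49619236-49619315, plus strand): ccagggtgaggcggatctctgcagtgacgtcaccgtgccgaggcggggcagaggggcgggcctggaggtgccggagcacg

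Over the full 300 bases, TTTGAA on either strand was found in 9 of 11 promoters of division kinesins (81.8%), in 1 of 10 of transport kinesins (10%, Kif1a), in 1 of 10 of ciliary kinesins (10%, Kif27), in 1 of 5 of the others (20%, Kif26b) and in 17.9% of all 32851 promoters in the table. Within 50 bases of the start, a window chosen after the positions had been seen, it was found in 7 of the 11 division promoters (63.6%), in 1 of 10 transport (10%), 0 of 10 ciliary and 1 of 5 other promoters (20%), and in 4.9% of all. The transport and other matches were those of Kif1a at -44 and Kif26b at -9, both kinesins that fell in the tumours. Kif14 and Kif2c held it farther out, with the first base at -228 and -103 from the start. CCAAT on either strand was in 7 of the 11 division promoters (63.6%), 2 of 10 transport (20%), 6 of 10 ciliary (60.0%) and 37.4% of all. Both transport promoters with CCAAT are of Kif1b, and their windows overlap, so the same matches were counted in each. Kif1a, Kif1b, Kif9 and Kif2a have several promoters, and each promoter was counted. In Kif11, Kif22, Kif23, Kif18b and Kif4 the nearest CCAAT match upstream lay 9 to 37 bases before the TTTGAA match, as counted between their first bases. No TTTGAA match overlapped a CCAAT match in these promoters. The E2F-type letters TTTCCCGC were in none of the kinesin promoters and in 1.1% of all, and TTTGGCGC was in 2 of the 11 division promoters (18.2%, Kif15 and Kif18a) and in 0.5% of all. These are matches of letters, and no binding was measured.

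**Figure D3:**
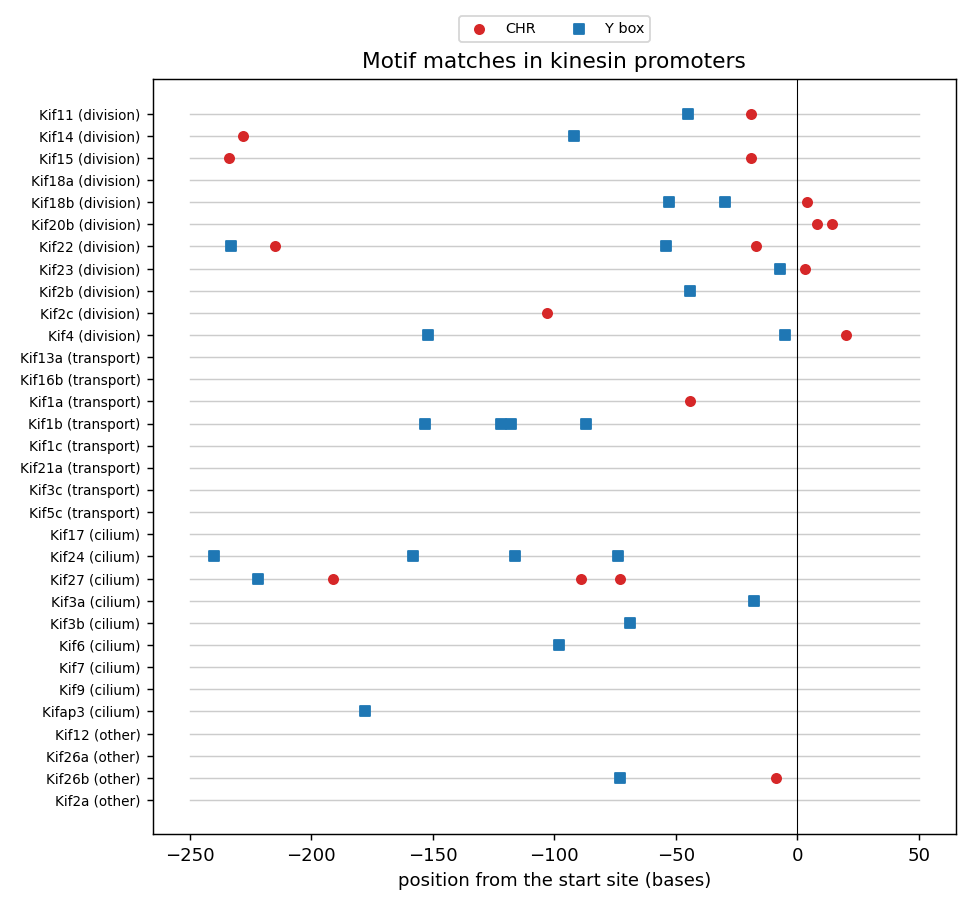
Position of each match of the CHR letters (red circles) and of the CCAAT letters, labelled Y box (blue squares), on either strand, in bases from the start of transcription (x axis), with a line per kinesin that has a promoter in the table and all promoters of a gene drawn on 1 line. The red circles of 7 division kinesins lie within 50 bases of the start, as do those of Kif1a and Kif26b.

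The partners of these motors were measured from a list of 16 genes of spindle assembly, kinetochores and cytokinesis. All 16 rose in SufuKO, all 16 rose in the tumours and all 16 were higher in the tumours than in SufuKO, with median log2 differences of 1.72, 2.56 and 0.85. Of all genes tested, 13% rose in SufuKO, 22.1% rose in the tumours and 12.2% were higher in the tumours than in SufuKO. Ect2, the exchange factor that centralspindlin brings to the cell equator, rose by 2.12 in SufuKO (adjusted p = 8.0e-07) and 3.13 in the tumours (adjusted p = 5.26e-09). Cenpe, a kinetochore motor that is itself a kinesin although its symbol falls outside the rule, rose by 1.73 and 2.77. Tpx2, which carries Aurora A to spindle microtubules, rose by 1.77 and 2.58. The list overlaps in function with the division kinesins and is no independent sample of genes. The sum of the granule neuron progenitor markers, given above, moved in the same order of groups as the division kinesins. It includes Mki67, a gene of dividing cells, so it is not a measure apart from division. The part of these progenitors in the kinesin values was not tested.

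Within groups the arrays were not alike. Replicate 3 of the tumours was the lowest of the 3 tumours for 11 of the 12 division kinesins, whose median level on it was 8.14 against 8.76 and 8.61, and it was the highest for 10 of the 14 transport kinesins. Wildtype replicate 1 was the highest wildtype array for 11 of the 12 division kinesins, with a median of 6.21 against 5.96 and 5.99. Without tumour replicate 3 the median difference of the division kinesins from wildtype was 2.52 instead of 2.37, with the same 11 called.

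Among transport kinesins, all 3 heavy chains of kinesin-1, the conventional carrier of axonal cargo, fell in the tumours and none was called in SufuKO. Kif5a, a neuronal form, read 10.19, 10.17 and 10.22 in wildtype, 9.95, 10.17 and 10.09 in SufuKO and 9.53, 9.54 and 9.62 in the tumours. Kif5c, also neuronal, read 10.41, 10.41 and 10.46, then 10.45, 10.45 and 10.43, then 9.97, 9.95 and 10.12. For both, every tumour array was below every cerebellum array, while the wildtype and SufuKO arrays overlapped. Kif5a was 1.55-fold lower in the tumours than in wildtype (adjusted p = 1.06e-05) and Kif5c 1.33-fold lower (adjusted p = 0.000196), and both were also lower than in SufuKO (1.42-fold and 1.35-fold). In SufuKO the difference of Kif5c from wildtype was 0.02, with a 95% interval of -0.13 to 0.16. Kif5b, the form made in most cell types, read 9.97, 9.94 and 10.02 in wildtype, 9.72, 9.90 and 9.91 in SufuKO and 9.76, 9.79 and 9.79 in the tumours, a fall of 1.15-fold in the tumours (adjusted p = 0.0310) that was lost under 7 of 19 alternative settings (adjusted p from 0.0147 to 0.137).

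The kinesin-3 family carries vesicles and endosomes, and its 6 transport members went different ways. Kif1a, the motor of synaptic vesicle precursors, read 10.95, 10.99 and 10.96 in wildtype, 10.74, 10.85 and 10.74 in SufuKO and 10.16, 10.08 and 10.31 in the tumours. Its groups formed a falling series without overlap, and the tumour level was 1.73-fold below wildtype (log2 difference -0.79 ± 0.07, SE; adjusted p = 2.04e-06), while the SufuKO difference of -0.19 had an adjusted p of 0.0724 and passed the threshold under 5 of 19 alternatives (adjusted p from 0.0388 to 0.194). Kif1b, which carries mitochondria and vesicle precursors, read 11.26, 11.33 and 11.33 in wildtype, 11.19, 11.22 and 11.28 in SufuKO and 10.80, 10.76 and 10.85 in the tumours, a fall of 1.42-fold in the tumours (adjusted p = 2.79e-05). Kif13a, an endosomal motor, was 1.33-fold lower in the tumours (adjusted p = 0.000545), from group means of 8.55 and 8.53 in the 2 cerebellum groups to 8.14. Kif1c, a carrier of dense-core vesicles, was called lower in the tumours by 1.13-fold (adjusted p = 0.0386), and that call was lost under 10 of 19 alternatives (adjusted p from 0.0229 to 0.103). Its second, dimmer probe set differed by -0.15 in the tumours (log2; adjusted p = 0.244 in a limma fit over all single-gene probe sets).

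Kif16b, which moves early endosomes, was the kinesin-3 member of the transport group that rose. It read 7.32, 7.46 and 7.15 in wildtype, 7.56, 7.55 and 7.69 in SufuKO and 7.79, 7.72 and 7.60 in the tumours. Every mutant array was above every wildtype array. The rise was 1.22-fold in SufuKO (adjusted p = 0.0295, from 0.00649 to 0.121 over the alternatives) and 1.31-fold for the tumours (adjusted p = 0.00244). Kif13b, a carrier of membrane receptors, was not called in any comparison. It read 8.06, 8.01 and 8.04 in wildtype, 8.16, 8.15 and 8.17 in SufuKO and 8.01, 8.005 and 8.08 in the tumours, so that the SufuKO arrays lay above all others by a small step (log2 difference from wildtype 0.12, 95% interval -0.0082 to 0.25).

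The 2 kinesin-4 members of the transport group moved in opposite directions. Kif21b, a motor of dendrites and axons, read 8.30, 7.88 and 8.04 in wildtype, 9.12, 9.06 and 9.09 in SufuKO and 8.97, 8.87 and 8.81 in the tumours. Every mutant array was above every wildtype array, and the SufuKO arrays lay above the tumours, the reverse of the order seen in the division kinesins. The rise was 2.03-fold in SufuKO (log2 difference 1.02 ± 0.09, SE; adjusted p = 1.70e-05) and 1.76-fold for the tumours (adjusted p = 1.48e-05), and the mutants differed by -0.21 (95% interval -0.41 to -0.00096; adjusted p = 0.130). No other transport kinesin rose by as much in either mutant. Kif21a, which restrains microtubule growth in axons, read 9.02, 9.01 and 8.94 in wildtype, 8.51, 8.84 and 8.71 in SufuKO and 8.40, 8.66 and 8.63 in the tumours. It was 1.35-fold lower in the tumours (adjusted p = 0.00222) and 1.24-fold lower in SufuKO (adjusted p = 0.0310), the latter call being lost under 7 of 19 alternatives (adjusted p from 0.0189 to 0.134).

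Kifc2, a minus-end kinesin of neurons, had the largest fall of the transport kinesins. It read 9.71, 9.76 and 9.75 in wildtype, 9.32, 9.45 and 9.27 in SufuKO and 8.35, 8.36 and 8.64 in the tumours, with no overlap between groups. The level was 1.32-fold below wildtype in SufuKO (log2 difference -0.40 ± 0.09, SE; adjusted p = 0.00482) and 2.45-fold below it in the tumours (-1.29 ± 0.09; adjusted p = 1.55e-07), and the tumours were 1.86-fold below SufuKO (adjusted p = 2.06e-05). Kifc3, the related minus-end motor known from epithelia, did not pass the test in either mutant (log2 differences -0.05 and -0.06). Kif3c, a neuronal kinesin-2, read 9.26, 9.55 and 9.37 in wildtype, 9.40, 9.31 and 9.39 in SufuKO and 8.98, 8.99 and 9.09 in the tumours, 1.30-fold below wildtype in the tumours (adjusted p = 0.00172).

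**Figure D4:**
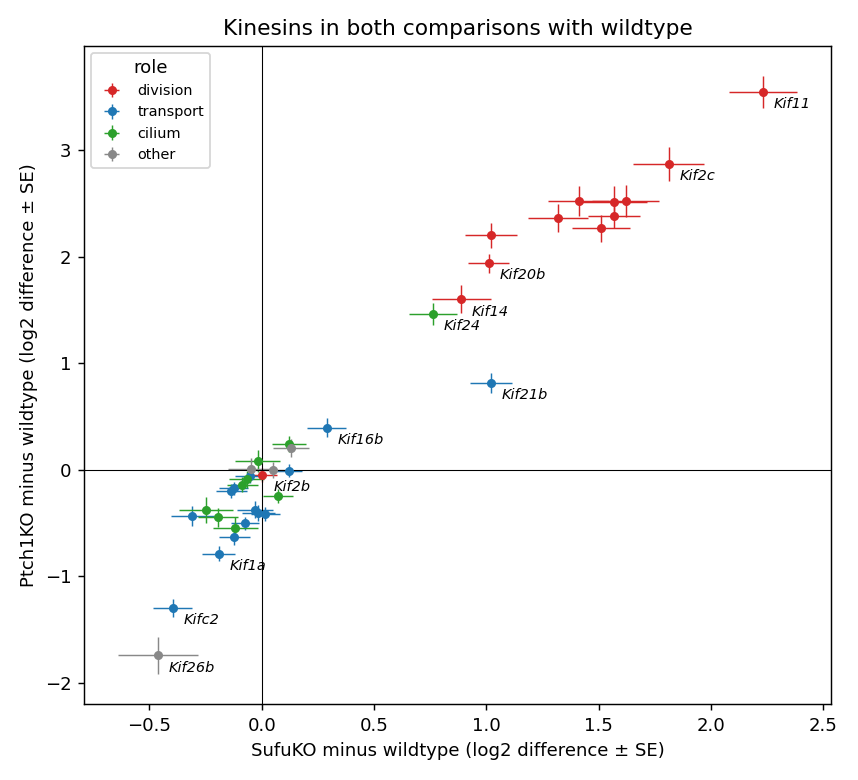
Log2 difference from wildtype of the 39 tested kinesins in SufuKO (x axis) and in the Ptch1KO tumours (y axis), with bars of 1 SE and colours by role; both axes use the same wildtype arrays, so the slope of the cloud is no result. Division kinesins other than Kif2b lie at the upper right, Kif24 and Kif21b lie between them and the rest, and Kifc2 and Kif26b lie lowest.

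Kinesin-1 and kinesin-3 reach their cargo through light chains and adaptors, of which 16 were measured. In the tumours 10 fell, none rose by limma and 6 were not called (median -0.43), where 24.7% of all genes fell and 22.1% rose. At an unadjusted p under 0.05, 12 were lower and 0 higher in the tumours. In SufuKO 1 fell and 15 were not called (median -0.09), where 12.4% of all genes fell and 13% rose. Between the mutants 10 were lower in the tumours (median -0.31), where 17.5% of all genes were. Ppfia4, a liprin that links the Kif1a motor to presynaptic cargo, differed from wildtype by -1.31 in the tumours (log2; adjusted p = 2.90e-06) and by -0.34 in SufuKO (adjusted p = 0.0679). Mapk8ip2, a scaffold that binds kinesin light chain, differed by -0.73 in the tumours (adjusted p = 1.52e-06) and by -0.18 in SufuKO (adjusted p = 0.0545). Fez1, an adaptor of kinesin-1 in axons, was the one called in SufuKO, at -0.32 (adjusted p = 0.00489) and -0.48 in the tumours.

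Markers of mature neurons and of myelin fell in both mutants, while the transport kinesins fell mainly in the tumours. The share of all genes called lower was 12.4% in SufuKO and 24.7% in the tumours. All 5 markers of mature granule neurons fell in both mutants, with summed log2 values of 57.63 to 58.82 in wildtype, 53.30 to 53.71 in SufuKO and 45.44 to 48.94 in the tumours. All 5 Purkinje cell markers fell in both, with sums of 53.25 to 53.91, 49.72 to 50.24 and 43.01 to 43.73. Of 6 mature oligodendrocyte markers 5 were measured, and all 5 fell in both, with sums of 50.26 to 51.76, 46.51 to 48.51 and 40.54 to 41.61. Markers of astrocytes and Bergmann glia fell for 5 of 5 in SufuKO and 4 of 5 in the tumours, with sums of 51.03 to 51.54, 46.61 to 47.05 and 44.87 to 47.39. Each of these lists fell in SufuKO, where 2 of the 14 transport kinesins fell. The part of these cells in the kinesin values was not tested.

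Of the ciliary group, the kinesin-2 motor that carries cargo up the cilium had no subunit called higher in either mutant. Kif3a read 8.503, 8.65 and 8.66 in wildtype, 8.47, 8.56 and 8.53 in SufuKO and 8.53, 8.41 and 8.46 in the tumours, with overlapping groups and a tumour difference of -0.14 (95% interval -0.29 to 0.0096; adjusted p = 0.120). Its partner Kif3b read 8.24, 8.40 and 8.31, then 8.39, 8.44 and 8.34, then 8.06, 8.04 and 8.11. The tumour arrays of Kif3b lay below all others, 1.19-fold under wildtype (adjusted p = 0.00802) and 1.25-fold under SufuKO (adjusted p = 0.00288). Kifap3, the subunit that joins the motor to cargo, read 9.41, 9.39 and 9.34 in wildtype, 9.03, 9.27 and 9.26 in SufuKO and 8.79, 8.93 and 9.09 in the tumours, 1.36-fold lower in the tumours (adjusted p = 0.00118). Its difference between the mutants, -0.25, had an adjusted p of 0.0518 and passed the threshold under 7 of 19 alternatives (adjusted p from 0.000146 to 0.212). Kif17, the homodimeric kinesin-2, read 6.27, 6.39 and 6.07 in wildtype, 6.26, 6.001 and 5.72 in SufuKO and 5.86, 5.85 and 5.89 in the tumours, 1.30-fold lower in the tumours (adjusted p = 0.0201, from 0.00242 to 0.0894 over the alternatives). These kinesin-2 subunits also serve axonal and dendritic transport.

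Kif7, the kinesin at the tip of the cilium that takes part in Hedgehog signalling with Sufu and the Gli factors, differed by small amounts. It read 7.501, 7.56 and 7.40 in wildtype, 7.71, 7.64 and 7.48 in SufuKO and 7.77, 7.71 and 7.70 in the tumours. The tumour arrays lay above all wildtype arrays by 1.18-fold (adjusted p = 0.0192, from 0.00684 to 0.133 over the alternatives), and the SufuKO arrays overlapped both groups. A second probe set of Kif7 gave a tumour difference of 0.29 against 0.24 for the first (log2; adjusted p = 0.00807 over all single-gene probe sets).

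Kif24, a depolymerase at the mother centriole that holds back cilium growth, rose in both mutants. It read 6.11, 5.79 and 5.89 in wildtype, 6.66, 6.75 and 6.65 in SufuKO and 7.48, 7.53 and 7.15 in the tumours. The 3 groups lay apart, with rises of 1.70-fold in SufuKO (adjusted p = 0.000295) and 2.75-fold for the tumours (adjusted p = 3.29e-07), and with the tumours 1.62-fold above SufuKO (adjusted p = 0.000374). No other member of the ciliary group reached a log2 rise of 1.

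The kinesins of motile cilia gave 1 call in the 2 comparisons with wildtype. Kif19a, which limits the length of motile cilia, had group means of 6.86, 6.74 and 6.31 and was 1.46-fold lower in the tumours than in wildtype (adjusted p = 0.000629). Kif6 and Kif9 differed from wildtype by at most 0.09 in size (log2 difference) and were not called. The second probe set of Kif6 differed by -0.11 in SufuKO and -0.10 in the tumours (adjusted p = 0.38 and 0.34 in a limma fit over all single-gene probe sets). Kif27 lay between 4.81 and 4.98 on all 9 arrays, below the filter, and was not tested. The 5 markers of multiciliated ependymal cells summed to between 30.55 and 30.72 in wildtype, 30.44 and 30.85 in SufuKO and 30.17 and 30.48 in the tumours, with none called against wildtype by limma and 1 higher in SufuKO at an unadjusted p under 0.05.

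The cargo trains that the kinesin-2 motor carries were read through 21 subunits of intraflagellar transport. Of these 9 rose and 2 fell in the tumours (median 0.20), where 22.1% of all genes rose and 24.7% fell. In SufuKO 4 rose and none fell by limma (median 0.10), where 13% and 12.4% of all genes did, with 8 higher and 0 lower at an unadjusted p under 0.05. Dync2h1, the heavy chain of the dynein that returns the trains, rose by 0.26 in SufuKO (log2; adjusted p = 0.0280) and 0.55 in the tumours (adjusted p = 8.77e-05). Ift140 rose by 0.40 and 0.47, Ift46 by 0.34 and 0.31, and Ift74 differed by 0.23 in SufuKO (adjusted p = 0.0730) and rose by 0.57 in the tumours.

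Of the 4 remaining kinesins, Kif26b had the largest fall of all 40. This non-motile kinesin read 9.38, 9.37 and 9.57 in wildtype, 8.87, 8.999 and 9.07 in SufuKO and 7.40, 7.45 and 8.25 in the tumours. No groups overlapped, and tumour replicate 3 was the nearest to the cerebellum arrays. The level was 3.34-fold below wildtype in the tumours (log2 difference -1.74 ± 0.18, SE; adjusted p = 4.81e-06) and 2.43-fold below SufuKO (adjusted p = 0.000197), and the SufuKO difference of -0.46 had an adjusted p of 0.0769 and passed under 4 of 19 alternatives (adjusted p from 0.00118 to 0.206). Without tumour replicate 3 the differences were -2.02 in the tumours and -0.46 in SufuKO (adjusted p = 0.00118). A second probe set of Kif26b gave -0.34, -1.39 and -1.05 in the 3 comparisons. In a limma fit over all single-gene probe sets its adjusted p was 0.0462, 1.15e-06 and 5.86e-05. In that fit the first probe set had an adjusted p of 0.0952 in SufuKO.

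Kif26a, the relative of Kif26b, read 7.03, 6.92 and 6.86 in wildtype, 7.12, 6.94 and 6.90 in SufuKO and 6.95, 6.90 and 6.97 in the tumours, with overlapping groups and no call. Kif12 was not called either, with group means of 5.80, 5.75 and 5.80. Kif2a, a depolymerase that acts both in growing axons and at spindle poles, read 8.97, 8.87 and 8.99 in wildtype, 8.92, 9.09 and 9.22 in SufuKO and 9.14, 9.20 and 9.10 in the tumours. Its tumour difference of 0.20 missed the threshold (adjusted p = 0.0576), and it passed under 8 of 19 alternatives (adjusted p from 0.0138 to 0.189).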

How the data were processed

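The authors deposited log2 expression values for 35556 probe sets on 9 Affymetrix Mouse Gene 1.0 ST arrays, 1 per sample. The scale was recognised from the values (3.04 to 13.8). How they were background-corrected, normalised and summarised is not given in the sources used here. Per the labels' protocols, total RNA came from frozen dissected tissue. The number of arrays limits the precision, and without detection calls the folds of dim genes may be understated.

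Probe sets were named by GEO's platform annotation and RefSeq identifiers (GRCm38.p6). Of them 21789 had 1 symbol, 1621 several and 12146 none listed; 21698 matched by identifier. The probe set with the highest mean stood for a gene. The 16323 genes that exceeded the 25th percentile of 3 or more arrays were tested with limma 3.58.1 (R 4.3.3), with 1 mean per group over all 9 arrays, empirical Bayes and 2-sided p-values adjusted by Benjamini-Hochberg. The fit was tested on simulated data. Fold is the log2 difference taken out of the log, SE is moderated, and intervals are 95%.

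The members, roles, partner and marker lists were chosen with earlier results of these data known. Every kinesin may be named. Of each partner list the 2 called members with the smallest p in each comparison with wildtype are named. Alternatives were other filters, scalings, variance models, probe set summaries, sex or replicate number as a covariate, only the 2 groups compared, and each array left out, 19 in all.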

Additional observations from a re-analysis of the deposited data

Results flagged for a closer look

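Kifc1 entered no comparison because its probe set is shared with Kifc5b, and the signal of that probe set was higher in the tumours than in the wildtype controls by 0.36 (difference of mean log2 values, not tested). It read 7.96, 7.81 and 7.80 in wildtype, 8.14, 8.05 and 7.88 in SufuKO and 8.36, 8.23 and 8.05 in the tumours, and the group means were 7.86 ± 0.09, 8.02 ± 0.13 and 8.22 ± 0.16 (SD, n = 3 each). Every tumour array was above every wildtype array, and the SufuKO arrays overlapped both. The probe set cannot say which of the 2 genes it reports, so the spindle motor Kifc1 has no value of its own here.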

How the results depend on the processing

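No kinesin that was called changed direction under any of the 19 alternatives. The counts of kinesins called stayed within 1.5 times their reported value under the 19 alternatives in every comparison and direction but 1. That was the count called lower in SufuKO, 2 as reported, which became 4 with array weights and 4 with sex as a covariate. It ranged from 1 to 4 when 1 array was left out, with 1 without each wildtype array in turn or without SufuKO replicate 3, and 4 without tumour replicate 3. The cause was not tested. The iteration for array weights stopped before it converged. Division kinesins were called higher for 11 of 12 in all 3 comparisons under every alternative but the filter at the array median, which tested 10 and called 10. With array weights Kif2b was also called lower in the tumours than in SufuKO (-0.12, adjusted p = 0.0498). Transport kinesins called lower in the tumours numbered 8 to 10. With sex as a covariate Kif21a in SufuKO (adjusted p = 0.134) and Kif7, Kif5b and Kif1c in the tumours (0.133, 0.137 and 0.0503) lost their calls, while Kif17, Kif19a and Kif1a in SufuKO (0.0473, 0.0437 and 0.0411) and Kif2a in the tumours (0.0138) gained one.

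The labels number the arrays of each group 1 to 3. Deviations of same-numbered arrays from their group means correlated between -0.313 and 0.352. The labels do not say whether arrays of the same number were handled together, and this was not tested. With the number as a replicate block, 114 of 117 calls of kinesins were as reported. Kif1c lost its call in the tumours (adjusted p = 0.0598), Kif26b gained one in SufuKO (0.0285) and Kifap3 gained one between the mutants (0.0471). Limits are 3 arrays a group, the missing detection calls for dim members such as Kif20b and Kif27, and the sex difference between wildtype and the mutants.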

Other observations

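Cytoplasmic dynein with its activator dynactin carries cargo towards the minus end, opposite to most kinesins, and serves both neurons and dividing cells. Of its 18 measured genes 9 fell and 2 rose in the tumours (median log2 difference -0.21), where 24.7% of all genes fell and 22.1% rose. In SufuKO 2 fell and 2 rose (median -0.01), shares near the 12.4% and 13% of all genes. Dync1i1, an intermediate chain with a neuronal form, differed by -1.76 in the tumours (limma, adjusted p = 7.42e-08) and by -0.26 in SufuKO (adjusted p = 0.0914). Dynll2, a light chain, fell by 0.36 in SufuKO (adjusted p = 0.00509) and by 0.71 in the tumours (adjusted p = 9.52e-06). Nde1, a dynein regulator that neural progenitors need to divide, went the other way, rising by 0.52 in SufuKO (adjusted p = 0.00522) and 0.99 in the tumours (adjusted p = 1.23e-05), with the tumours above SufuKO (adjusted p = 0.00653). Between the mutants 7 of the 18 were lower in the tumours and 1, Nde1, was higher, where 17.5% and 12.2% of all genes were.

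Markers of other cell types were also counted with limma, where 13% of all genes rose and 12.4% fell in SufuKO, and 22.1% and 24.7% in the tumours. Of 5 microglial markers 1 rose in SufuKO and 3 rose in the tumours, of 5 choroid plexus markers 3 and 2 rose, and of 4 endothelial markers 2 and 4 fell. The choroid plexus markers that rose were Otx2, Kl and, in SufuKO alone, Sostdc1, with wildtype means of 8.42, 5.76 and 5.58. Ttr and Folr1 were not called in either mutant. Whether these rises come from choroid plexus was not tested. The summed log2 values of the choroid plexus markers ranged from 33.8 to 37.0 within wildtype and from 34.8 to 40.1 within SufuKO. Of these markers Ttr varied most, with an SD of 1.34 in wildtype and 2.09 in SufuKO. The largest SD of the others in these groups was 0.19, that of Sostdc1 in SufuKO.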
